A study of Thermochaetoides thermophila with 9 samples.

Results

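The genes described here had their lowest counts in sugar-depleted mycelium, higher counts after glucose and the highest counts after xylose. They were picked out of 7785 genes of Chaetomium thermophilum, a heat-loving mould also known as Thermochaetoides thermophila. Each library's counts were first divided by a size factor, the median over 6503 genes of the ratio to the gene's geometric mean, and the result is called a scaled count. A gene was kept when every xylose library lay above every glucose library, every glucose library lay above every reference library, the mean was at least 2 times higher at each step, and the mean in xylose reached 100 scaled counts. Of the 335 genes that met these conditions 3 belong to 4 IDs that the definition leaves out, so that 332 members remained, 4.26% of the table. The members were thus selected on all 3 differences between the conditions, and their differences are given below as a description of that choice, with no test.

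Wild-type mycelium was grown, depleted of carbon in a minimal medium with peptone, yeast extract and salts, and then kept for 6 h in the same medium with 1% D-xylose, with 1% D-glucose or without sugar. These 3 conditions are called xylose, glucose and reference, and each has 3 libraries that the labels describe as biological replicates. The medium without sugar still holds amino acids, so the reference is not a culture without nutrients. The labels put the depletion at 48 h and growth at 50 °C. The study's text differs from them in places on both points and on the medium of the first culture. It also differs within itself on the reference. Its workflow figure gives 6 h for the reference too, while its results take the reference RNA from the depletion culture. Poly(A) RNA was sequenced as single-end reads, and the reads per gene were counted.

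A cell that grows spends much of its transcription on ribosomes. The ribosome has a small (40S) and a large (60S) subunit, each made of ribosomal RNA and many proteins, and initiation and elongation factors, tRNA synthetases, chaperones at the nascent chain and the enzymes that supply amino acids and nucleotides serve protein synthesis around it. In budding yeast the genes for these proteins are transcribed together when nutrients allow growth and are turned down when carbon runs out. Glucose enters metabolism through glycolysis, whereas fungi convert xylose to xylulose 5-phosphate and pass it through the pentose phosphate pathway.

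The libraries held 38806913 to 52229013 counted reads. The 3 annotated rRNA genes took 11.6% to 13.3% of the counts in xylose, 7.36% to 22.9% in glucose and 15.7% to 32.0% in reference, with the highest shares in glucose replicate 3 and reference replicate 3, and their part in the results was not tested. In edgeR's quasi-likelihood test over 6904 genes, with a threshold of 0.05 on the adjusted p, 28.2% of the genes were higher and 22.6% lower in xylose than in glucose. For glucose against reference these shares were 24% and 25.4%, and for xylose against reference they were 32.3% and 32.4%. The same test called 288 of the members higher in xylose than in glucose, 306 higher in glucose than in reference and all 332 higher in xylose than in reference, which follows from how they were chosen. Counts are relative to the rest of each library, so more of a transcript and less of all others cannot be told apart.

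The members took up a large part of the libraries. Of the counts off the rRNA genes, the members held 29.3%, 28.5% and 30.9% in the 3 xylose libraries, 8.74%, 7.79% and 8.05% in the glucose libraries and 1.92%, 5.04% and 1.41% in the reference libraries. The means were 29.6% ± 1.23 in xylose, 8.19% ± 0.49 in glucose and 2.79% ± 1.97 in reference (SD, n = 3 each). The 52 members described as 40S or 60S ribosomal proteins accounted for 14.2% ± 1.08 of these counts in xylose, 4.16% ± 0.14 in glucose and 1.36% ± 1.22 in reference. Xylose and glucose libraries were tightly grouped, and the wide spread in the reference came from its second library.

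**Figure D1:**
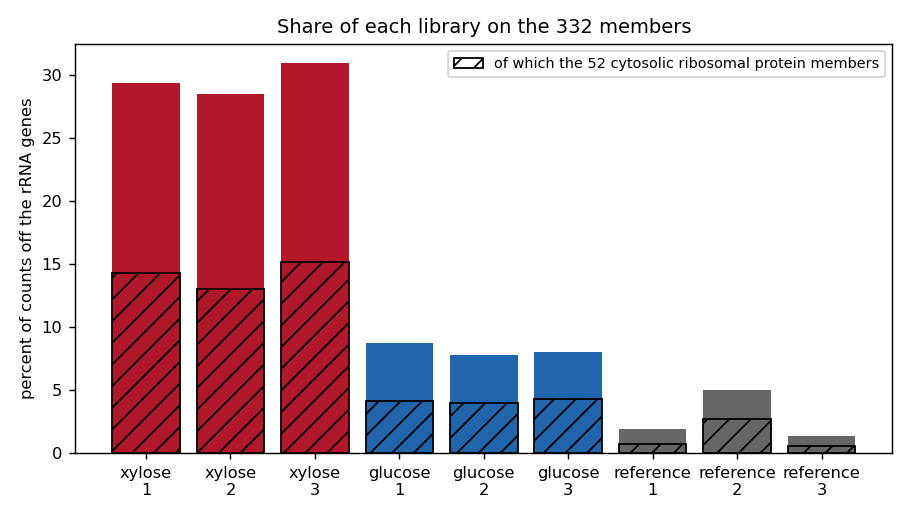
Percent of each library's counts off the rRNA genes that fell on the 332 members (full bars) and on their 52 cytosolic ribosomal proteins (hatched), for 3 xylose, 3 glucose and 3 reference libraries. The xylose libraries reach 28.5% to 30.9%, the glucose libraries 7.79% to 8.74%, and reference replicate 2 stands at 5.04% beside 1.92% and 1.41% in the other two.

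Reference replicate 2 stood apart on these genes. It was the highest of the 3 reference libraries for 260 of the 332 members, and its scaled count was 1.85 times the mean of the other two at the median member, against 1.01 times over the 6503 genes behind the size factors. Among the 52 cytosolic ribosomal protein members the median was 5.43 times, and 51 of them were highest in this library. Among the 189 members without a description it was 1.5003 times. Without reference replicate 2, the median ratio of glucose to reference over the members was 4.14, against 3.11 with all libraries, and 107 members moved by over 1.5 times in this ratio. The rule then chose 406 genes in place of 332, so the ratios of glucose to reference below depend on this library, and where a printed one moves by over 1.5 times without it, the value without it follows.

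With the size factors of the rule both steps were of similar size over the members as a whole. The ratio of mean xylose to mean glucose had a median of 2.99, with quartiles of 2.46 and 4.09 and a highest value of 26.8. The ratio of mean glucose to mean reference had a median of 3.11, with quartiles of 2.48 and 3.94 and a highest value of 9.87. For the same members the medians of these ratios were 2.90 and 3.53 with TMM scaling and 3.57 and 2.91 with total counts. Which step was the larger one at the median thus depended on the scaling. Between xylose and glucose 56 members reached 5-fold and 7 reached 10-fold, and between glucose and reference 36 reached 5-fold and none 10-fold. Between these conditions 129 members reached 5-fold and 28 reached 10-fold without reference replicate 2. From xylose to reference the median ratio was 9.81, and 41 members reached 20-fold, against a median of 14.5 and 108 members without that library. The glucose step was the larger one in 181 members with all libraries and in 229 when reference replicate 2 was left out.

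**Figure D2:**
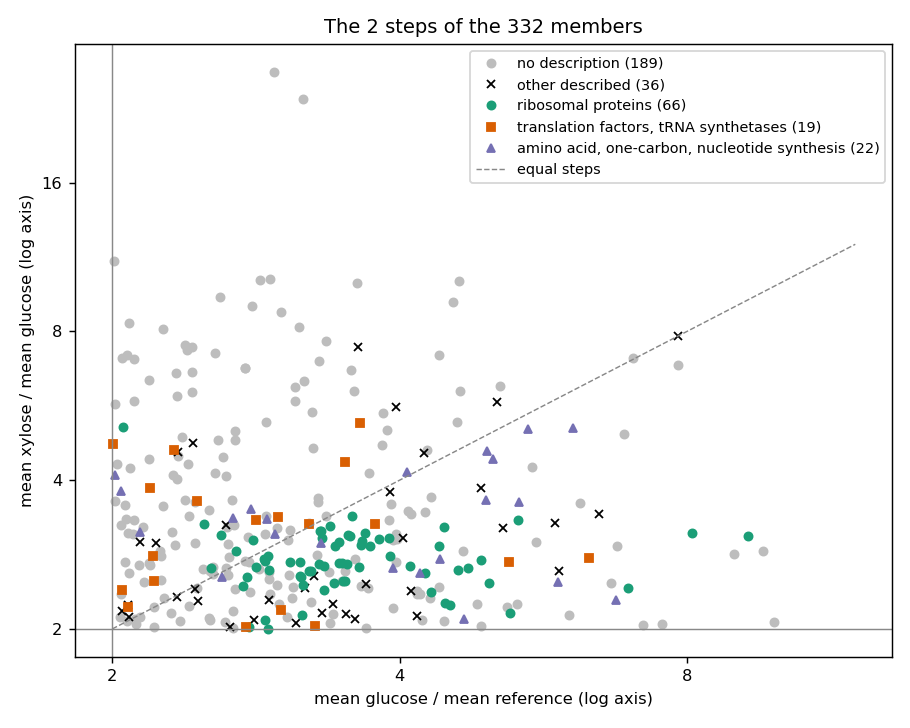
Ratio of mean xylose to mean glucose (vertical, log axis) against the ratio of mean glucose to mean reference (horizontal, log axis) for each of the 332 members, marked by product class, with the limit of 2 on both axes as grey lines and equal steps as a dashed line. With the size factors of the rule, ribosomal proteins lie mostly below the dashed line. The 10 members with the largest xylose step have no description, as have 189 of all 332. Descriptions were held mainly for genes high in glucose. Both axes share the glucose mean, so a gene with a high glucose value is moved right and down.

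Gene descriptions were taken from a supplementary table of the study that lists the genes highest in glucose and is held here only in part, so genes with low counts in glucose had little chance of a name. Of the members 143 had a description and 121 of these fell into one of 16 lists built from the wording of the descriptions. The other 189 members are named by their ID only. The description of CTHT_0043670 came from another supplementary table. The lists contain only genes that were high in glucose, so their counts are not a survey of each pathway, and their differences from reference or xylose are partly set by that choice. Over all 1053 genes with a description the median log2-fold change was 0.05 for xylose against glucose and 0.86 for glucose against reference. In these comparisons edgeR called 19.5% and 45.01% of them higher. The counts of each list are to be read beside these shares, and the medians are given beside those of the lists.

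Translation elongation factors included the member with the most counts, in a rank of scaled counts that are not divided by gene length and so also grow with the length of the transcript. Elongation factor 1-alpha (CTHT_0012210), which brings aminoacyl-tRNA to the ribosome, had 691044, 1113260 and 1049450 scaled counts in xylose, 219130, 192374 and 244715 in glucose and 46362, 113477 and 27450 in reference. As the rule requires, the groups did not overlap, and the second reference library lay between the other reference libraries and glucose. This single gene held 2.60% ± 0.29 of the counts off the rRNA genes in xylose, 0.50% ± 0.08 in glucose and 0.16% ± 0.10 in reference (SD, n = 3 each). Its mean ratios were 4.35 for xylose to glucose and 3.50 for glucose to reference, the second being 5.93 without reference replicate 2.

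Other factors of elongation followed the same order. CTHT_0033570, described as a putative elongation factor, had 180492, 247080 and 289227 scaled counts in xylose, 73276, 67916 and 78176 in glucose and 17827, 36227 and 14141 in reference. Elongation factor 1-gamma (CTHT_0067860), a subunit of the complex that reloads factor 1-alpha with GTP, had the largest xylose step of the list, with 70036, 104080 and 89693 in xylose, 18611, 16508 and 15459 in glucose and 2085, 10236 and 1589 in reference. Its xylose to glucose ratio was 5.22. The factor eIF-5A (CTHT_0029800), which helps the ribosome past difficult stretches of peptide, had 90591, 93621 and 109813 in xylose, 21180, 18894 and 23800 in glucose and 7892, 15255 and 4400 in reference. All 3 reference libraries lay below all glucose libraries for these genes, as the rule requires, with a smaller margin in replicate 2 than in replicates 1 and 3. The margin of replicate 2 to the lowest glucose library was narrow for eIF-5A (15255 against 18894). For CTHT_0033570 it was wider (36227 against 67916).

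Initiation factors were divided by the size of the glucose step. The list of initiation and elongation factors had 27 genes, one of which is a methyltransferase that acts on an elongation factor, and 9 were members. Of the 18 that were not, 13 missed the 2-fold step from reference to glucose and 5 of these missed nothing else. The rule was met by 16 of the 27 without reference replicate 2 and by 4 without reference replicate 3. This division thus depends on single reference libraries. Subunits of eIF3, the large scaffold of initiation, were found on both sides of that limit. The member nearest to it was the eIF3 subunit CTHT_0020050, with 12660, 13551 and 15954 scaled counts in xylose, 3227, 2865 and 2828 in glucose and 1261, 2123 and 1065 in reference, a glucose to reference ratio of 2.005 and a xylose to glucose ratio of 4.73. Across the whole list edgeR called 20 genes higher and 2 lower in xylose than in glucose, with a median log2-fold change of 1.82, against 0.05 over the described genes and 0.16 over all genes tested. For glucose against reference 17 were higher and 1 lower, with a median of 0.98, against 0.86 over the described genes, which were themselves found through high counts in glucose, and -0.05 over all genes tested. That count of 17 was 11 without glucose replicate 2 or 3, 8 without reference replicate 1 and 9 without reference replicate 3.

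Cytosolic ribosomal proteins were the largest group by name, with 52 of the 65 genes on the list among the members, and 15 of the 20 members with the highest counts in xylose. The xylose to glucose ratio had a median of 2.75 and a range of 2.001 to 5.12, and the glucose to reference ratio had a median of 3.44 and a range of 2.05 to 9.27. In 47 of the 52 the glucose step was the larger one, as in 13 of the 14 members on the list of other ribosomal proteins, against 121 of the 266 members on neither list. Without reference replicate 2 these counts were 51, 14 and 164. In that setting the glucose to reference ratio of the 52 had a median of 8.29 and a range of 2.32 to 27.6. The 266 include the 189 members without a description, of which 77 had the larger glucose step with all libraries. Descriptions were held mainly for genes high in glucose, so this contrast is partly set by that choice. It was counted with the size factors of the rule. With total counts the median steps over all members were 3.57 for xylose to glucose and 2.91 for glucose to reference.

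Proteins of the small subunit gave the same picture gene by gene. The protein S2 (CTHT_0047910), which lies near the entry of the mRNA channel, had 130368, 167552 and 198838 scaled counts in xylose, 49757, 57369 and 74426 in glucose and 8652, 42654 and 6472 in reference. S4 (CTHT_0012920) had 127070, 142676 and 198069 in xylose, 40408, 43709 and 54228 in glucose and 6168, 29353 and 3295 in reference. S6 (CTHT_0005340), the substrate of S6 kinase in animals, had 138091, 125002 and 177692 in xylose, 39094, 48077 and 55902 in glucose and 5429, 30624 and 4232 in reference. In each of them the second reference library came close to the lowest glucose library while replicates 1 and 3 lay several fold below. That the 3 conditions did not overlap is set by the rule. Another 6 small subunit proteins were among the 20 members with the most counts in xylose. Their xylose to glucose and glucose to reference ratios were 3.03 and 3.80 for S1 (CTHT_0028780), 3.26 and 2.498 for S15 (CTHT_0009120), 2.44 and 2.74 for S5 (CTHT_0015350), 2.46 and 3.17 for S23 (CTHT_0005070), 2.997 and 3.46 for S3 (CTHT_0026360) and 3.06 and 3.90 for S0 (CTHT_0006550). When reference replicate 2 was left out, the glucose to reference ratios were 7.74 for S1, 4.98 for S15, 5.22 for S5, 7.02 for S23, 7.45 for S3 and 11.2 for S0.

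The large subunit repeated this order. The xylose to glucose and glucose to reference ratios were 2.67 and 2.83 for L4 (CTHT_0061540) and 2.73 and 3.07 for L12 (CTHT_0066380), and without reference replicate 2 the second ratio was 6.19 for L4 and 8.19 for L12. The stalk protein P0 (CTHT_0067070), which anchors the site where elongation factors bind, had 131044, 217215 and 193013 scaled counts in xylose, 61354, 63383 and 87298 in glucose and 15802, 51230 and 9524 in reference. L8 (CTHT_0042550) had 128847, 138467 and 173915 in xylose, 43541, 49558 and 56321 in glucose and 6454, 30051 and 4462 in reference. L25 (CTHT_0023650), a protein at the polypeptide exit tunnel, had 76481, 89857 and 104465 in xylose, 28393, 33470 and 46469 in glucose and 4560, 23423 and 3088 in reference. Among the 52 cytosolic ribosomal protein members xylose replicate 3 was the highest xylose library for 42 and glucose replicate 3 the highest glucose library for 50, so the spread within a condition was shared by them.

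Among the ribosomal protein members, a pair had a larger glucose step than the rest. With genes that were not members included, the highest edgeR log2-fold change of glucose against reference was 3.37 on the list of other ribosomal proteins. On the cytosolic list it was 3.20. S12 (CTHT_0070080) had 107982, 108434 and 128639 scaled counts in xylose, 32342, 36115 and 43668 in glucose and 2499, 9037 and 561 in reference, and L5 (CTHT_0063640), which binds 5S rRNA, had 113173, 114757 and 163991 in xylose, 36672, 43077 and 45670 in glucose and 2013, 12477 and 1016 in reference. The glucose to reference ratio was 9.27 for S12 and 8.09 for L5, and without reference replicate 2 it was 24.4 and 27.6. A xylose to glucose ratio above all other ribosomal proteins was found in one of the genes described as L36, CTHT_0066200, with 30400, 29043 and 47686 in xylose, 6674, 5974 and 8278 in glucose and 3084, 4176 and 2935 in reference. The other L36 gene, CTHT_0054170, had a ratio of 2.001 and is the member nearest to that limit. Whether reads are shared between these genes of the same description could not be checked without their sequences.

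The 13 cytosolic ribosomal protein genes that were not members missed the rule in a uniform way. For 12 of them the only condition not met was that every glucose library lie above every reference library, and their means passed both 2-fold steps. L3 (CTHT_0004490) had 178738, 257409 and 285004 scaled counts in xylose, 71154, 76585 and 102100 in glucose and 19403, 71375 and 12393 in reference, so that reference replicate 2 passed the lowest glucose library by a small margin. When reference replicate 2 was left out, 63 of the 65 genes met the rule. The remaining exception in both settings was CTHT_0018890, described as a putative 40S ribosomal protein, with 13746, 24083 and 24805 in xylose, 32445, 38226 and 40453 in glucose and 6913, 17864 and 7020 in reference, the one gene of the list that was lower in xylose than in glucose.

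Over all 65 genes, edgeR called 65 higher in xylose than in reference, 39 higher in glucose than in reference with 26 not called, and 27 higher in xylose than in glucose with 38 not called. The median log2-fold changes were 3.21, 1.71 and 1.56, against 0.70, 0.86 and 0.05 over the described genes and -0.05, -0.05 and 0.16 over all genes tested. The last 2 counts rested on single libraries. Without reference replicate 2 they were 65 for glucose against reference and 64 for xylose against glucose. For glucose against reference they were 10 and 9 without glucose replicate 2 or 3, 6 and 7 without reference replicate 1 or 3, and 24 and 25 without xylose replicate 1 or 3. For xylose against glucose they were 2 to 7 without any 1 xylose or glucose library and 51 without reference replicate 3, 8 with either of the other filters on low counts, 10 with DESeq2 size factors, 46 with DESeq2's Wald test and 61 with total counts. All 3 conditions share one estimate of the spread in this model, and with only the conditions compared in it 64 of the 65 were called higher in xylose than in glucose and 19 higher in glucose than in reference.

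A protein described only as a putative guanine nucleotide-binding protein (CTHT_0047160) followed the ribosomal proteins closely, with 139714, 167322 and 212462 scaled counts in xylose, 64380, 73667 and 93728 in glucose and 10217, 51553 and 6324 in reference. Its glucose to reference ratio was 9.33 without reference replicate 2, against 3.40 with it.

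Other ribosomal proteins, 43 genes whose description names no 40S or 60S subunit and which include proteins of the mitochondrial ribosome, had 14 members. The other 29 all missed the 2-fold step from glucose to xylose. The median log2-fold change of the list was 0.64 for xylose against glucose and 2.25 for glucose against reference, against 0.05 and 0.86 over the described genes and 0.16 and -0.05 over all genes tested. edgeR called 38 higher in glucose than in reference and 12 higher in xylose than in glucose, and the second count was 4 without glucose replicate 1, 6 without xylose replicate 2 or 3 or glucose replicate 2, 7 without glucose replicate 3, with DESeq2 size factors or with either of the other filters on low counts, and 19 without reference replicate 3. Among its members with the most counts in xylose the xylose to glucose and glucose to reference ratios were 2.67 and 3.62 for CTHT_0023560, described only as a ribosomal protein, 3.23 and 3.38 for L19 (CTHT_0047080), 2.68 and 4.10 for L15 (CTHT_0002100) and 2.37 and 4.32 for CTHT_0026460, a putative ribosomal protein. The glucose to reference ratios without reference replicate 2 were 8.83 for CTHT_0023560, 6.20 for L19, 8.18 for L15 and 12.3 for CTHT_0026460. Another member was CTHT_0001710, described as ymL32-like, with 3190, 5394 and 3185 scaled counts in xylose, 2176, 1854 and 1443 in glucose and 349, 345 and 355 in reference. Its 3 reference libraries were alike, unlike those of most members of the list. Over the 14 members, reference replicate 2 was 4.06 times the mean of the other reference libraries at the median. It was the highest reference library for 12 of them.

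**Figure D3:**
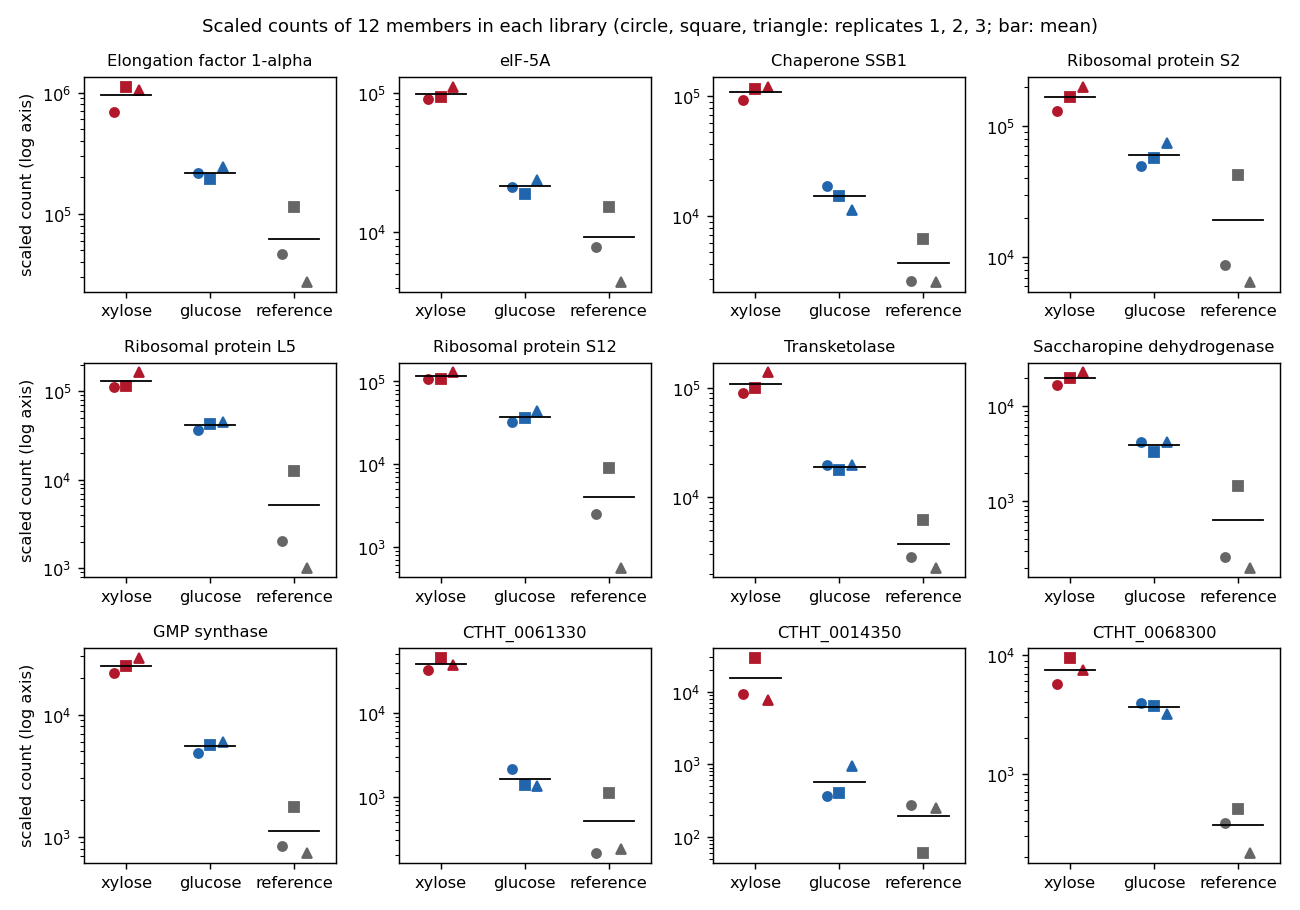
Scaled counts (log axis) of 12 members in the 3 xylose, 3 glucose and 3 reference libraries, with replicates 1, 2 and 3 as circle, square and triangle and the mean as a bar. In every panel the conditions are separate, as the rule requires. Reference replicate 2 is the highest reference library in all panels except CTHT_0014350, where it is the lowest.

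Charging of tRNAs was represented by 10 of 19 aminoacyl-tRNA synthetases, the enzymes that join each amino acid to its tRNA. Their median ratios were 2.76 for xylose to glucose and 2.99 for glucose to reference. Lysyl-tRNA synthetase (CTHT_0044380) had 24962, 38124 and 33770 scaled counts in xylose, 9187, 8754 and 11782 in glucose and 1819, 4029 and 2036 in reference. The synthetase described as mitochondrial and specific for phenylalanine (CTHT_0016030) had the largest glucose step of the list, 6.31 with all libraries and 13.6 without reference replicate 2, with 32043, 49668 and 43312 in xylose, 14876, 13750 and 16251 in glucose and 1204, 4911 and 998 in reference. Arginyl-tRNA synthetase (CTHT_0039930), with 22252, 35378 and 34125 in xylose, 15473, 14384 and 15316 in glucose and 4014, 6661 and 3182 in reference, was near the limit for xylose to glucose with a ratio of 2.03. The glycyl-tRNA synthetase (CTHT_0023340) had the fourth highest counts among the members of the list, with ratios of 3.36 and 2.98. On the whole list 14 genes were called higher in xylose than in glucose and 17 higher in glucose than in reference, leaving 5 and 2 not called. The genes called higher are 73.7% and 89.5% of the list, against 19.5% and 45.01% of the described genes. The median log2-fold changes were 1.25 and 1.48, against 0.05 and 0.86 over the described genes.

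Chaperones were few among the members, with 3 of the 26 genes on that list, and the members among them work on new chains or on folding of cytosolic proteins. The ribosome-associated chaperone SSB1 (CTHT_0058460), an Hsp70 that in yeast binds chains as they leave the ribosome, had 92678, 115038 and 119767 scaled counts in xylose, 17936, 14775 and 11233 in glucose and 2864, 6482 and 2811 in reference. With a xylose to glucose ratio of 7.45 it had the second largest xylose step of any member with a description, after the FAD binding protein described below. The beta subunit of the nascent polypeptide-associated complex (CTHT_0014390), which also sits at the tunnel exit, had 39853, 46343 and 49131 in xylose, 10688, 8925 and 10223 in glucose and 1813, 3972 and 1250 in reference. The gamma subunit of the T-complex chaperonin (CTHT_0002430), which folds actin and tubulin, had ratios of only 2.24 and 2.07. On the whole list 6 genes were called higher and 5 lower in xylose than in glucose, and 13 higher and 1 lower in glucose than in reference, and without reference replicate 3 the count of 13 was 7. The genes called higher are 23.1% and 50% of the list, near the 19.5% and 45.01% of the described genes.

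Ribosome assembly and RNA polymerases I and III were barely covered by the descriptions, with 3 and 2 genes. The member of the first list was an H/ACA ribonucleoprotein subunit (CTHT_0048300), part of the particles that guide pseudouridylation of rRNA, with 9821, 9904 and 14150 scaled counts in xylose, 4230, 4974 and 4004 in glucose and 1027, 2287 and 745 in reference. Another subunit of that particle, CTHT_0066610, had means of 19248 in xylose, 8774 in glucose and 8444 in reference, and the 60S biogenesis factor REI1 (CTHT_0044240) had means of 7545 in xylose, 3363 in glucose and 3038 in reference. Both reached 2-fold between xylose and glucose and not between glucose and reference. A subunit shared by the RNA polymerases (CTHT_0058280) was a member, with 2893, 3850 and 2961 in xylose, 1223, 1076 and 944 in glucose and 471, 588 and 458 in reference. A subunit of RNA polymerase III (CTHT_0009170), with means of 2286 in xylose, 1635 in glucose and 1161 in reference, was not. All 5 genes of these lists were called higher in xylose than in glucose and 2 in glucose than in reference, and only 1 of the 2 polymerase genes was called higher in xylose than in glucose without any 1 xylose or glucose library or without reference replicate 2.

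Amino acid biosynthesis contributed 14 of 36 genes on its list, over several families of amino acids. In the branched-chain pathway, ketol-acid reductoisomerase (CTHT_0051680) had 59820, 109207 and 86619 scaled counts in xylose, 21631, 23444 and 28040 in glucose and 5110, 17633 and 3439 in reference. The small, regulatory subunit of acetolactate synthase (CTHT_0008710), the first step of that pathway, had 22052, 33625 and 24624 in xylose, 8166, 7530 and 10066 in glucose and 3144, 3676 and 1884 in reference. Aspartate aminotransferase (CTHT_0000600), which supplies aspartate, had 45907, 70187 and 76394 in xylose, 18759, 18009 and 20657 in glucose and 4106, 13978 and 3369 in reference. For the reductoisomerase and the aminotransferase reference replicate 2 was again high, and without it their glucose to reference ratios were 5.70 and 5.12, against 2.79 and 2.68 with it.

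One gene of the fungal lysine pathway had the largest difference of the list between xylose and reference. Saccharopine dehydrogenase (CTHT_0065790), of the last steps to lysine, had 16866, 19974 and 22716 scaled counts in xylose, 4162, 3302 and 4195 in glucose and 257, 1463 and 200 in reference, which gave ratios of 5.11 and 6.07 and a xylose to reference ratio of 31.0. Its glucose to reference ratio was 16.998 and its xylose to reference ratio 86.4 without reference replicate 2. Homoisocitrate dehydrogenase (CTHT_0055150), an earlier step, had 14261, 29723 and 24621 in xylose, 7826, 7566 and 12148 in glucose and 992, 3045 and 661 in reference. In the route to aromatic amino acids, both genes for the first enzyme (CTHT_0059500 and CTHT_0044960), chorismate synthase (CTHT_0015480) and tryptophan synthase (CTHT_0000630) were members, with xylose to glucose ratios of 3.34, 4.16, 3.14 and 2.65. Serine synthesis was represented by phosphoglycerate dehydrogenase (CTHT_0028080), with ratios of 4.42 and 5.01, and phosphoserine aminotransferase (CTHT_0028130), with 2.60 and 4.21. Homoserine dehydrogenase (CTHT_0043810), on the way to threonine and methionine, had one of the larger glucose steps, with 6656, 7502 and 8813 in xylose, 3284, 2762 and 4000 in glucose and 131, 1257 and 104 in reference, and its glucose to reference ratio was 6.73 with all libraries and 28.5 without reference replicate 2.

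The other genes of the list lacked one or both steps. Of the 22 list genes that were not members 14 missed the xylose step, 19 the glucose step and 11 both. edgeR called 22 of the 36 higher and 2 lower in xylose than in glucose, and 19 higher and 5 lower in glucose than in reference, with median log2-fold changes of 1.54 and 0.91, against 0.05 and 0.86 over the described genes. The list was built on wording and also holds genes of amino acid breakdown or other routes. Of the 5 called lower in glucose than in reference, the pyrroline-5-carboxylate dehydrogenase-like CTHT_0060010 and ornithine aminotransferase (CTHT_0070940) belong to proline and arginine breakdown, and the others were homocitrate synthase (CTHT_0044760), a branched-chain aminotransferase (CTHT_0062930) and a glutamine synthetase (CTHT_0003770). The 2 called lower in xylose than in glucose were cystathionine beta-synthase (CTHT_0022050) and CTHT_0021170, described as a putative L-ornithine protein. S-adenosylmethionine synthase (CTHT_0009260) is counted on this list through its wording and on the next by its function.

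One-carbon and nucleotide synthesis had 9 members among 16 genes, with median ratios of 3.64 for xylose to glucose and 4.68 for glucose to reference. S-adenosylmethionine synthase, which makes the methyl donor, had 32088, 37239 and 35811 scaled counts in xylose, 8852, 8109 and 18227 in glucose and 3458, 5006 and 2181 in reference. Adenosylhomocysteinase (CTHT_0031560), which clears the product of methylation, had 31599, 25244 and 39282 in xylose, 12205, 12588 and 21152 in glucose and 1507, 6751 and 1569 in reference. In both, glucose replicate 3 was well above the other glucose libraries. This was strongest in serine hydroxymethyltransferase (CTHT_0016310), the entry of carbon from serine, with 19438, 21041 and 25948 in xylose, 3707, 3711 and 10977 in glucose and 545, 2420 and 487 in reference. Its ratios of 3.61 and 5.33 became 6.03 and 3.23 without glucose replicate 3, and the second was 11.9 without reference replicate 2.

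In purine and pyrimidine synthesis, 20-fold between xylose and reference was reached by the enzymes given here. Over the 9 members of the list the median of this ratio was 9.88, with a lowest value of 6.64. GMP synthase (CTHT_0036600) had 21696, 24787 and 29001 scaled counts in xylose, 4839, 5611 and 5997 in glucose and 846, 1752 and 735 in reference, a ratio of 22.6 between xylose and reference. Orotate phosphoribosyltransferase (CTHT_0029650), of pyrimidine synthesis, had 6715, 16782 and 9565 in xylose, 1974, 1968 and 2568 in glucose and 209, 798 and 188 in reference, a ratio of 27.7 that was 55.3 without reference replicate 2. The list as a whole had 14 genes called higher in glucose than in reference and 8 called higher in xylose than in glucose, leaving 2 and 8 not called. The genes called higher are 87.5% and 50% of the list, against 45.01% and 19.5% of the described genes. The 7 genes that were not members all missed the xylose step, among them a second serine hydroxymethyltransferase (CTHT_0047070) with means of 11670 in xylose, 11920 in glucose and 3831 in reference.

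Of the pentose phosphate pathway, through which xylose carbon passes, 3 of 5 genes were members. Transketolase (CTHT_0066780), which exchanges 2-carbon units between the sugars of the non-oxidative branch, had 88993, 100133 and 138434 scaled counts in xylose, 19551, 17605 and 19875 in glucose and 2839, 6160 and 2273 in reference, with ratios of 5.74 and 5.06. Ribulose-phosphate 3-epimerase (CTHT_0003090), which links xylulose 5-phosphate to the oxidative branch, had 5381, 7702 and 8159 in xylose, 1768, 1477 and 2984 in glucose and 117, 755 and 89.6 in reference. Glucose-6-phosphate dehydrogenase (CTHT_0057650), the entry of the oxidative branch, had 19488, 10421 and 23758 in xylose, 7201, 7233 and 8986 in glucose and 2086, 3320 and 2610 in reference, and its second xylose library was close to the highest glucose library. Separation of the conditions is required by the rule, and between xylose and glucose its margin was wider in transketolase and the epimerase.

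The other enzymes of that pathway each lacked one step. Transaldolase (CTHT_0013420), the partner of transketolase, had means of 84688 in xylose, 93608 in glucose and 29366 in reference, and edgeR gave an adjusted p of 0.946 for xylose against glucose and 0.0187 for glucose against reference. For 6-phosphogluconate dehydrogenase (CTHT_0060270) the means were 81580 in xylose, 28074 in glucose and 20203 in reference, with adjusted p of 0.00328 and 0.317 for the same comparisons in edgeR. Over the 5 genes 4 were called higher in xylose than in glucose and 4 in glucose than in reference, 3 of them in both, and without glucose replicate 1 only 2 were called higher in xylose than in glucose. D-xylose reductase (CTHT_0056950), the first enzyme of xylose use, met the rule but is among the 4 IDs it leaves out, with 77316, 51688 and 86880 in xylose, 6395, 8668 and 8389 in glucose and 341, 688 and 316 in reference. Of the other IDs left out, CTHT_0055100 and CTHT_0057070 met the rule, with xylose means of 9894 and 4250, and CTHT_0047500, with a mean of 57.3, did not.

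Glycolysis had a single member. Glucose-6-phosphate isomerase (CTHT_0035120), which also connects the pentose phosphates with glucose 6-phosphate, had 20208, 26536 and 29041 scaled counts in xylose, 11465, 11155 and 13005 in glucose and 1440, 5877 and 1225 in reference. The other 7 glycolytic genes on the list all missed the xylose step. Glyceraldehyde-3-phosphate dehydrogenase (CTHT_0004880) had means of 233659 in xylose, 379108 in glucose and 83189 in reference, and triosephosphate isomerase (CTHT_0025650) had means of 17532 in xylose, 25444 in glucose and 3595 in reference. Fructose-bisphosphate aldolase (CTHT_0050360), phosphoglycerate kinase (CTHT_0037370) and phosphofructokinase (CTHT_0014530) likewise had their highest mean in glucose, with xylose to glucose ratios of 0.63, 0.71 and 0.83. Pyruvate kinase (CTHT_0017880) and phosphoglycerate mutase (CTHT_0016420) had it in xylose, with means of 39078 and 22364 in xylose, 27535 and 14335 in glucose and 10002 and 3431 in reference. With edgeR none of the 8 was called in either direction between xylose and glucose (1 was higher at an unadjusted p under 0.05, and DESeq2 called none), and 1 was called higher without reference replicate 2 or 3. In glucose against reference 6 were called higher, 75% of the list against 45.01% of the described genes.

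The respiratory chain and ATP synthase had a single member. On that list the rule was met by 0 genes with TMM scaling, by 6 with total counts and by 10 with 1.5-fold steps. The beta subunit of ATP synthase (CTHT_0006240), the catalytic subunit, had the second highest counts of all members, with 168393, 282500 and 284456 scaled counts in xylose, 119123, 118886 and 126150 in glucose and 33037, 86529 and 17450 in reference. It was the one member among 39 genes of the respiratory chain and ATP synthase, and its xylose to glucose ratio of 2.02 lay close to the limit, on the other side of which was the alpha subunit (CTHT_0073120) with 1.99. Of these 39 genes, 26 were called higher in glucose than in reference, and 2 higher and 2 lower in xylose than in glucose, where the count of those higher was 0 to 9 over the alternatives, with 8 without reference replicate 2 and 0 or 1 without any 1 of the others except reference replicate 3. The genes called higher are 66.7% and 5.13% of the list, against 45.01% and 19.5% of the described genes. Malate dehydrogenase (CTHT_0032190), in no list, had 70252, 76252 and 89277 in xylose, 21597, 19102 and 20367 in glucose and 3682, 6787 and 2087 in reference.

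Import of proteins into mitochondria had 3 members of 5 genes. The channel Tom40 (CTHT_0028620) had 7223, 5783 and 7021 scaled counts in xylose, 3590, 3346 and 2409 in glucose and 967, 756 and 936 in reference, and an inner membrane translocase subunit (CTHT_0070900) had 4805, 6206 and 6067 in xylose, 2356, 2453 and 2123 in glucose and 434, 866 and 581 in reference. An import receptor subunit (CTHT_0061990) rested on xylose replicate 2, with 5258, 15976 and 6783 in xylose, 4440, 4655 and 4301 in glucose and 1089, 1829 and 816 in reference, and its xylose to glucose ratio was 1.37 without that library, against 2.09 with it. The import genes that were not members, CTHT_0062880 and CTHT_0061200, had xylose to glucose ratios of 1.99 and 1.84 and glucose to reference ratios of 1.08 and 1.66. All 5 were called higher in xylose than in glucose by edgeR.

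Among the mitochondrial carriers 1 of 5 was a member. It is one of the genes described as a pyruvate carrier (CTHT_0072990), with 5045, 2898 and 4892 scaled counts in xylose, 1077, 1134 and 1186 in glucose and 201, 449 and 219 in reference. The other pyruvate carrier gene, CTHT_0014330, had means of 7942 in xylose, 5159 in glucose and 3084 in reference and reached neither 2-fold step. The phosphate carrier (CTHT_0005820) missed only the xylose step, with means of 55374 in xylose, 33860 in glucose and 8465 in reference. The carrier CTHT_0008520 had its lowest mean in glucose, with 5295 in xylose, 3039 in glucose and 6378 in reference, and the carrier CTHT_0033220 had it in xylose, with 2586 in xylose, 6570 in glucose and 11781 in reference. Of the 5 carriers 3 were called higher and 1 lower at each step, and only 1 was called higher in xylose than in glucose without xylose replicate 1, glucose replicate 1 or glucose replicate 2, or higher in glucose than in reference without reference replicate 1 or 3. The proteasome, which degrades proteins, had no member among 22 genes, and all 22 missed both steps. edgeR called 1 of them higher in xylose than in glucose and 3 higher in glucose than in reference, and over the alternatives these counts were 0 to 1 and 0 to 6.

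**Figure D4:**
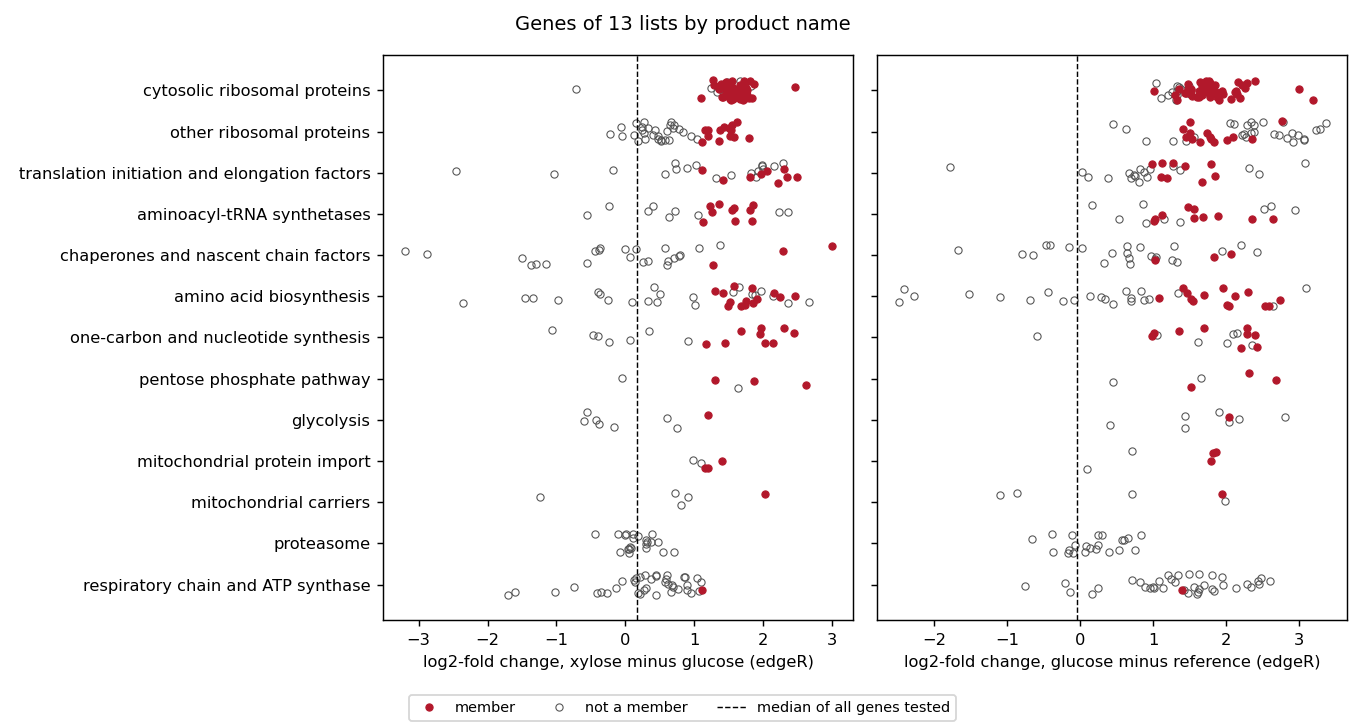
edgeR log2-fold changes of the genes in 13 lists, for xylose minus glucose (left) and glucose minus reference (right), with members filled, other genes open, the median of all genes tested dashed (0.16 and -0.05, against 0.05 and 0.86 over the described genes) and random vertical scatter within a row. Cytosolic ribosomal proteins cluster around their medians of 1.56 and 1.71, other ribosomal proteins around 0.64 and 2.25, and the proteasome stays near the dashed line in both.

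All 10 members with the largest xylose to glucose ratio had no description, as had 189 of the 332 members. Descriptions were held mainly for genes high in glucose, and a low glucose mean raises this ratio. The lack of names is thus partly set by that choice. CTHT_0061330 had 32366, 45330 and 37708 scaled counts in xylose, 2169, 1378 and 1351 in glucose and 212, 1100 and 234 in reference, so that its lowest xylose library was far above all glucose libraries, with a ratio of 23.6. CTHT_0014350 had a higher ratio, 26.8, from 9220, 29008 and 7757 in xylose, 366, 402 and 947 in glucose and 271, 59.7 and 250 in reference, but its replicates varied more and the ratio was 15.04 without xylose replicate 2. CTHT_0040910 rested on that library almost alone, with 2265, 20409 and 2004 in xylose, 616, 570 and 1041 in glucose and 311, 317 and 481 in reference, and its ratio of 11.1 became 2.92 without it.

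The other genes of this kind did not rest on a single xylose library. CTHT_0008010 had 11556, 17709 and 15137 scaled counts in xylose, 1805, 1252 and 1287 in glucose and 674, 405 and 407 in reference, and CTHT_0072720 had 8669, 10969 and 9889 in xylose, 1503, 1036 and 682 in glucose and 314, 235 and 159 in reference. CTHT_0027900 had xylose libraries close to each other, with 1243, 1218 and 1441 in xylose, 162, 116 and 107 in glucose and 27.7, 42.5 and 13.3 in reference. CTHT_0060430, CTHT_0029200, CTHT_0033460 and CTHT_0000140 completed the 10, with xylose to glucose ratios of 10.002, 10.1, 9.37 and 8.98. Glucose replicate 1 was the highest glucose library for 7 of the 10 and replicate 3 for the other 3. Over all members these libraries were the highest for 50.6% and 44.9%.

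Of all 332 members 189 had no description, and of the 10 with the largest glucose to reference ratio 7 had none. CTHT_0068300 led them with 5677, 9457 and 7435 scaled counts in xylose, 3984, 3718 and 3213 in glucose and 383, 509 and 215 in reference, a ratio of 9.87, while its xylose to glucose ratio of 2.07 was near the limit. CTHT_0049100, with ratios of 9.61 and 2.87 for glucose to reference and xylose to glucose, and CTHT_0015760, with 8.96 and 2.84, followed. CTHT_0069900 (7.53 and 2.04) and CTHT_0011570 (7.20 and 2.04) were close to the limit of the xylose step as well. In these genes most of the overall difference on a log scale lay between glucose and reference. When reference replicate 2 was left out, only 2 of the 10 were still among the 10 largest, and none of those 10 was without a description.

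A few genes were high in both steps. CTHT_0043670, described as an FAD binding protein, had 2691, 3723 and 3599 scaled counts in xylose, 446, 415 and 419 in glucose and 55.3, 38.4 and 69.7 in reference, with ratios of 7.82 and 7.83 and a xylose to reference ratio of 61.3. CTHT_0038560 had 6388, 7245 and 6918 in xylose, 926, 805 and 1274 in glucose and 128, 155 and 102 in reference, with ratios of 6.84 and 7.82. CTHT_0034510 had 3332, 6508 and 4049 in xylose, 890, 554 and 521 in glucose and 77.6, 157 and 45.3 in reference, with ratios of 7.07 and 7.02, the second being 10.7 without reference replicate 2. The order of the conditions in every library of these genes, as of all members, is set by the rule. With CTHT_0061330 and CTHT_0014350, CTHT_0043670 and CTHT_0038560 were the 4 members that reached 50-fold between xylose and reference, and 13 did so without reference replicate 2.

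The members varied within conditions in a shared way. Xylose replicate 1 was the lowest of its condition for 224 members and the highest for 26, while the highest was replicate 3 for 155 and replicate 2 for 151. Among all genes behind the size factors, xylose replicate 1 was highest for 24.96%, against 7.83% of the members. Glucose replicate 2 was the highest glucose library for 15 members, or 4.52%, against 21.8% of all those genes. The median coefficient of variation of the members was 19.4% in xylose, 17.1% in glucose and 41.1% in reference. The lowest xylose library lay above the highest glucose library by a median factor of 2.01, with a smallest factor of 1.01, and the lowest glucose library above the highest reference library by a median factor of 1.62, with a smallest of 1.02. Without reference replicate 2 the median of the second factor was 2.95.

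Some members lie next to each other in the genome. In the RefSeq gene order of assembly CTHT_3.0, where all 332 were found among 7473 genes, 53 members had another member as a direct neighbour, forming 27 adjacent pairs, and 8.14% of the positions beside a member held a member, while members made up 4.44% of all genes. Gene spans overlapped in none of the 27 pairs. In 3 pairs both genes were on the ribosomal protein lists, namely L6 (CTHT_0009640) with L35 (CTHT_0009650), L21 (CTHT_0011760) with S9 (CTHT_0011770), and S25 (CTHT_0015340) with S5 (CTHT_0015350). Other pairs joined different roles, such as L24 (CTHT_0014380) with the nascent chain factor CTHT_0014390, L33 (CTHT_0057640) with glucose-6-phosphate dehydrogenase (CTHT_0057650), and adenosylhomocysteinase (CTHT_0031560) with a subunit of eIF3 (CTHT_0031570). The only run of 3 was CTHT_0000590, described as alcohol dehydrogenase-like, aspartate aminotransferase (CTHT_0000600) and CTHT_0000610, with xylose to glucose ratios of 4.57, 3.35 and 2.04. The annotation used holds no strand, so shared promoters were not examined.

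The edges of the rule were set by folds. Of all genes 155 missed only the 2-fold step between xylose and glucose, 117 only that between glucose and reference, 24 only the separation of glucose and reference libraries, 8 only that of xylose and glucose libraries, and 2 only the minimum in xylose. On the xylose to glucose ratio the nearest members were CTHT_0054170 (2.001), CTHT_0039540 (2.007) and CTHT_0054120 (2.01), and the genes just outside were CTHT_0037250 (1.999), CTHT_0025040 (1.994) and CTHT_0073120 (1.993). On the glucose to reference ratio the nearest members were CTHT_0020050 (2.005), CTHT_0040910 (2.009) and CTHT_0044080 (2.01), and those just outside were CTHT_0023800, CTHT_0009410 and CTHT_0010130, each at 1.98. The member with the lowest mean in xylose was CTHT_0021330 at 111, the only member with under 10 counts in a library, and the others had at least 224. The 2 genes that missed only this limit, CTHT_0031660 and CTHT_0049720, had means of 55.3 and 53.2 in xylose.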

How the data were processed

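The labels describe 3 biological replicates of 3 conditions, and per the labels and the study's methods poly(A) RNA was made into directional libraries and sequenced as single-end reads. The authors mapped the reads with TopHat2 to the Ensembl genome and deposited raw counts per gene. Reads were counted with summarizeOverlaps of GenomicAlignments, whose counting mode and strand setting are not given in the sources used here, so the handling of overlapping genes is unknown. Scaled counts were computed with DESeq2's median-of-ratios method over 6503 genes with at least 10 counts in all 9 libraries. The rule of the opening paragraph was applied to them, and ratios are ratios of means of scaled counts. Scaled counts were not divided by gene length, so ranks of genes by count also reflect transcript length. The members, lists and rules were chosen with earlier results of these data known, and no set test was run.

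Genes were tested with edgeR 4.0.16 in R 4.3.3 (TMM scaling, filterByExpr, quasi-likelihood F test, 9 libraries in 1 model), with Benjamini-Hochberg adjustment over 6904 genes and a threshold of 0.05. The test was checked on simulated counts. TMM scaling of the whole table, without the filter, moved the median log2 ratio of glucose to reference over all genes tested to 0.17, against -0.02 with the size factors of the rule. With total counts that of xylose to glucose was 0.34, against 0.06. Alternatives were DESeq2 1.42.0 size factors and Wald test, total counts, other filters, a replicate block, 2 conditions only and leaving out each library.

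Named genes were the 20 members highest in xylose, the 10 with the largest ratio at each step, the 4 highest in each of 16 lists, the 3 on either side of each fold limit, all genes of lists with up to 15 genes and the IDs left out. Other genes named with values (such as malate dehydrogenase, the genes of lysine, aromatic, serine and homoserine synthesis, L25 and the neighbours) were chosen after their values were seen. The 3 rRNA genes were taken from RefSeq. Motifs, gene lengths and sequences were not used here.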

Additional observations from a re-analysis of the deposited data

How the results depend on the processing

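The rule chose 573 genes with steps of 1.5-fold and 82 with steps of 3-fold, against 332 with steps of 2-fold. Other scalings, other minima and allowing libraries to overlap gave 331 to 386 genes, and 256 members met the rule under every scaling tried. Leaving out 1 library at a time gave 275 to 406 genes, the extremes being without reference replicate 3 and without reference replicate 2. Without the pair with the most rRNA reads in their condition (reference replicate 3 and glucose replicate 3), a setting that was chosen after the data had been seen, the rule was met by 302 genes. Leaving out reference replicate 3 brought 51 members below a 2-fold glucose step.

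The counts of genes called by edgeR stayed within 1.5 times of the main ones in every alternative. Leaving out single libraries gave 2682 to 3861 for xylose against glucose, 2522 to 3837 for glucose against reference and 4016 to 4664 for xylose against reference. Replicate numbers are shared between conditions, and the correlations of same-numbered libraries in their deviations were 0.17 to 0.29 for replicate 1, -0.12 to 0.03 for replicate 2 and -0.28 to 0.06 for replicate 3. Not all pairs deviated together, so the numbers were not used to pair libraries. Of the genes called for glucose against reference 48.6% were higher, and the share was 58.9% with no filter on low counts, 58.7% when all 9 libraries had to reach 10 counts and 59.8% without glucose replicate 1. With a replicate block the counts were 3374, 3343 and 4399, against 3504, 3416 and 4463 without it. Of the list counts 668 comparisons with an alternative stayed within 1.5 times and 100 did not. The log2 ratios of named members moved by over their replicate spread in 7 of 1474 cases, all under total counts. That spread is wide where 1 library stands apart, so a large shift can stay within it. The glucose to reference ratio of L5, which rose from 8.09 to 27.6 without reference replicate 2, is not among the 7 cases.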

Other observations

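The same rule with the conditions in the opposite order, applied after the members were known, was met by 151 genes, which were lowest in xylose and highest in reference, with median ratios of 0.32 for xylose to glucose and 0.33 for glucose to reference. A description was held for 17 of them, against 1053 of all 7785 genes, and 1 fell into a list. Descriptions were held mainly for genes high in glucose. NAD-specific glutamate dehydrogenase (CTHT_0027020), which releases ammonia from glutamate, had 19191, 53365 and 30307 scaled counts in xylose, 78135, 85909 and 126911 in glucose and 297871, 405793 and 386804 in reference. Fructose-1,6-bisphosphatase (CTHT_0042460), an enzyme of gluconeogenesis, had 689, 1853 and 1272 in xylose, 19538, 27227 and 18084 in glucose and 37572, 55172 and 42507 in reference. A pyrroline-5-carboxylate dehydrogenase-like gene (CTHT_0060010), of proline breakdown, had 3434, 41057 and 11710 in xylose, 46403, 57710 and 47636 in glucose and 188699, 380436 and 224004 in reference. In all 3 of these genes xylose replicate 2 was the highest xylose library.

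The remaining orders of the 3 conditions were met by fewer genes. With the same limits 101 genes were lowest in xylose and highest in glucose, 40 lowest in glucose and highest in reference, 34 lowest in glucose and highest in xylose, and 25 lowest in reference and highest in glucose.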
